A study of Mus musculus with 4 samples.

Results

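The genes described here are the 10 ligands of the B7 family and related immune checkpoints that were read from the expression table of mouse leukemia-initiating cells: Cd274, Pdcd1lg2, Cd80, Cd86, Cd276, Icosl, Vsir, Lgals9, Cd47 and Pvr. They were chosen by name, through their NCBI gene numbers, so that the deleted gene Cd274 could be set beside the other ligands that might take its place, and all 10 were among the 27179 genes of the table. The table held 4 libraries, 2 labelled wild type (WT) and 2 labelled CD274-/- (CD274-null). All of them were labelled as leukemia stem cells sorted from the bone marrow of C57BL/6 mice aged 6 weeks. In this model of acute myeloid leukemia (AML), Lin- fetal liver cells are transduced with a retrovirus that carries the MLL-AF9 fusion oncogene and a yellow fluorescent protein and are transplanted into lethally irradiated C57BL/6 recipients, and leukemia-initiating cells (LICs) are defined by Mac-1 and c-Kit on the surface. Both groups therefore carried MLL-AF9 and differed, by their labels, in the CD274 genotype of the transplanted cells, while the recipients were not described as deficient. Nothing in the labels says that the 2 libraries of a group came from separate mice, so the p-values measure only the spread between these libraries.

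Immune checkpoints are pairs of surface proteins through which a cell restrains or stimulates the immune cell that touches it. Members of the B7 family are immunoglobulin-type membrane proteins, and they bind receptors of the CD28 family on T cells: CD274 (PD-L1) and PDCD1LG2 (PD-L2) bind the inhibitory receptor PD-1, CD80 and CD86 bind both stimulatory CD28 and inhibitory CTLA-4, and ICOSL binds the costimulatory receptor ICOS. VISTA, the product of Vsir, and B7-H3, the product of Cd276, are more distant relatives that restrain T cells in many settings. The remaining ligands lie outside the family: galectin-9 (Lgals9) is a secreted lectin that binds TIM-3, CD47 tells macrophages not to engulf a cell by binding SIRPA, and CD155 (Pvr) binds the activating receptor CD226 and the inhibitory receptors TIGIT and CD96. Myeloid leukemia cells are known to use several of these pairs.

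The libraries were of similar depth, with 8843737 to 11568565 mapped reads behind the FPKM values (read numbers corrected for the length of the gene and for library depth). Read numbers given beside an FPKM value were recovered from the steps between low values, and intervals made from them cover counting error only. The label LSC was set against its defining markers: Itgam, which encodes the alpha chain of Mac-1, stood between 100.2 and 174.4 FPKM, and Kit stood at 6.59 FPKM in WT 1 and between 16.17 and 19.46 FPKM in the other libraries. The 10 neutrophil markers summed to 8820 FPKM in WT 2 and to 18400 to 43500 FPKM in the other libraries. The 10 plasma cell markers summed to 196 and 90.2 FPKM in the WT libraries and to 411 and 471 FPKM in the CD274-null libraries. Most of the WT sums was Xbp1, which overlapped between the groups (177 and 66.79 FPKM in WT, 132.8 and 105.8 FPKM in CD274-null). The immunoglobulin genes Igkc, Ighm and Jchain were candidates (defined below) that were higher. The sex-linked genes also separated the groups, Xist being at 2.57 and 51.1 FPKM in WT and at 107 and 68.7 FPKM in CD274-null, and Ddx3y at 27.1 and 18.1 FPKM in WT and at 0.0244 and 6.28 FPKM in CD274-null. With these libraries the difference in sex-linked genes and the labelled genotype cannot be told apart. The part of these differences in the results below was not tested, and in bulk RNA fewer cells of a type cannot be told apart from less RNA per cell.

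The 10 ligands spanned a wide range in FPKM, which is corrected for gene length and so allows levels to be compared between genes. Averaged over the 4 libraries, Cd47 led with 212 FPKM, followed by Lgals9 with 120, Vsir with 86.4, Icosl with 15.5, Pvr with 7.07, Cd80 with 1.97, Cd274 with 1.87, Cd86 with 0.564, Pdcd1lg2 with 0.0638 and Cd276 with 0.0245 FPKM. Of the neighbours in this order, the ranges over the 4 libraries overlapped for Lgals9 and Vsir, for Cd80 and Cd274 and for Pdcd1lg2 and Cd276, and did not overlap for the other pairs. The PD-1 ligand gene Cd274 thus lay among the weakly expressed members, and most of the checkpoint ligand RNA came from Cd47, Lgals9 and Vsir, which together made up 96.5% and 93.3% of the summed FPKM of the members in the WT libraries compared with 93.3% and 91.9% in the CD274-null libraries.

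**Figure D1:**
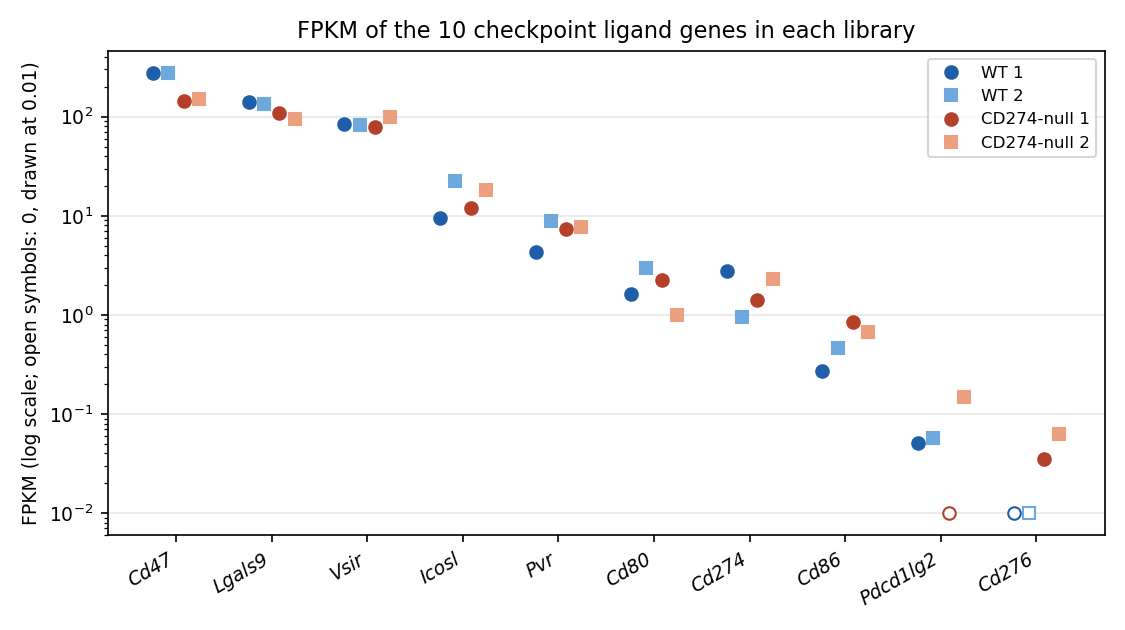
FPKM on a log scale for each of the 10 ligand genes, ordered by mean level, with one symbol per library (blue, WT; red, CD274-null) and open symbols for values of 0. Cd47 and Lgals9 sit lower in both CD274-null libraries than in both WT libraries, and the Cd274 values of the groups interleave.

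The targeted gene was examined first, since its level bears on the labels. Cd274 (NCBI gene 60533) lies on chromosome 19 of GRCm38 at 29362107 to 29388095. Its FPKM was 2.803 in WT 1, 0.9446 in WT 2, 1.429 in CD274-null 1 and 2.291 in CD274-null 2, from 118, 35, 46 and 83 reads. Both CD274-null libraries lay between the WT libraries, so the gene was not lower in the libraries labelled CD274-null. The means were 1.87 ± 1.31 FPKM in WT and 1.86 ± 0.609 FPKM in CD274-null (SD, n = 2 in each), that is 99.3% of the WT mean. The log2 fold change was 0.09 with a standard error of 0.51 and an interval of -1.15 to 1.32 at the 95% level (limma, adjusted p = 0.955), which holds a decrease of more than 1 log2 unit as well as an increase of that size. Within the WT group the libraries differed 2.97-fold, and their Poisson intervals of 2.32 to 3.36 and 0.658 to 1.31 FPKM did not touch. The RNA of the targeted gene therefore did not separate the groups, and every direction given below rests on the labels of the libraries.

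The exons removed in the knockout allele are not given in the sources used here, and a gene-wide FPKM cannot show whether reads fall inside or outside a deleted part. The annotated transcript Cd274-201 has 7 exons and 3622 bases, of which 2706 (74.7%) lie in the last exon, with only 20 coding bases there. The smallest length that fits the FPKM values was 3639 bases, close to the whole transcript but equal to no annotated one. This length does not show where along the transcript the reads fall. The pair of primers that the study used to measure CD274 RNA is shown because it marks a part of the transcript that is much narrower, 238 bases within exon 3, a coding exon of 342 bases (9.44% of the transcript). The primers are written 5′ to 3′.

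CD274-F: gctccaaaggacttgtacgtg

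CD274-R: tgatctgaagggcagcatttc

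The forward primer matched chr19:29373572-29373592 on the plus strand and the reverse primer chr19:29373789-29373809 on the minus strand, both in exon 3 of Cd274-201. Among 141767 annotated transcripts the forward primer had an exact match in 2 and the reverse primer in 1. The amplicon is thus a small part of the stretch that the FPKM reads.

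Cd274 was highest in WT 1, followed by CD274-null 2, CD274-null 1 and WT 2. The summed FPKM of the neutrophil markers had the same order, which 4 of the 10 markers shared one by one (S100a8, S100a9, Ngp and Lcn2), and of the 10 markers 9 were lowest in WT 2 and 7 were highest in WT 1. The part of this in the Cd274 values was not tested. Of all tested genes, those whose centred log2 values lay nearest to those of Cd274 over the 4 libraries were Tgm2, which encodes a transglutaminase, C5ar2, a receptor for the complement fragment C5a, Kdm6b, a histone demethylase, Spata5l1 and B3galt6, a galactosyltransferase, with root mean square distances of 0.0122, 0.0246, 0.0357, 0.0476 and 0.0574 log2 units. Tgm2, the nearest, had 8.16, 3.27, 4.46 and 6.68 FPKM in the order WT 1, WT 2, CD274-null 1 and CD274-null 2, and Kdm6b had 27.4, 11.9, 15.8 and 21.9 FPKM. This likeness rests on 4 libraries and describes only their order and spacing.

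Pdcd1lg2 encodes the second ligand of PD-1 and begins 22824 bases beyond the end of Cd274 on chromosome 19. It had 0.05062 FPKM in WT 1, 0.05752 in WT 2, 0 in CD274-null 1 and 0.147 in CD274-null 2, which are 2, 2, 0 and 5 reads. A count of 3 reads would be 0.0759 to 0.0993 FPKM in these libraries, so PD-L2 RNA was at or near the limit of detection in all 4 and was not tested. The summed FPKM of the PD-1 ligand genes was 2.85 and 1 in the WT libraries compared with 1.43 and 2.44 in the CD274-null libraries, and again the CD274-null values lay between the WT values. Of the nearest protein-coding neighbours, Rln1 was at 0 in all 4 libraries and Insl6 at 0.152 FPKM or less, and the expressed ones given next were picked after their values were seen. Jak2, a kinase gene of cytokine signalling that lies 49012 bases before Cd274, had 15.7 and 24.1 FPKM in WT and 12.9 and 15.7 FPKM in CD274-null. Plgrkt, a plasminogen receptor gene whose annotated end overlaps the widest annotation of Cd274, had 41.1 and 56.3 FPKM in WT and 47.5 and 62.1 FPKM in CD274-null. The kit named in the labels does not mark strand, so reads from overlapping genes cannot be told apart.

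The ligands of CD28 and CTLA-4 were low in all libraries. Cd80, on chromosome 16 at 38457430 to 38495958, had 1.626 and 3.002 FPKM in WT and 2.26 and 1.004 FPKM in CD274-null, from 17 to 52 reads. The groups overlapped, and the log2 fold change was -0.42 ± 0.47 (SE) with an interval of -1.57 to 0.72 (limma, adjusted p = 0.72). Cd86, on the same chromosome at 36568956 to 36666158, had 0.2724 and 0.4642 FPKM in WT and 0.8462 and 0.6724 FPKM in CD274-null, from 8, 12, 19 and 17 reads. Both CD274-null values of Cd86 were above both WT values, as for 25.6% of all tested genes, and the mean was 206% of that in WT. The log2 fold change of 0.54 ± 0.43 (SE) did not pass the test (interval -0.51 to 1.59, limma, adjusted p = 0.6), and the gene was above the minimum mean level for testing through its CD274-null libraries. Of the 12 dendritic cell markers, a cell type that normally carries much CD86, 8 were higher in both CD274-null libraries than in both WT libraries, 3 overlapped (Flt3, Zbtb46 and Xcr1) and Ccl22 was at 0 in all 4. Only 4 of the 12 reached the level for testing, so the 25.6% of tested genes is no like measure for the other markers. Some of the 8 rest on very few reads, such as Siglech with 1 read in each CD274-null library and none in WT. Most of their summed FPKM was Bst2, and the other 11 summed to 3.21 and 13.3 FPKM in WT and to 16.8 and 11.8 FPKM in CD274-null, which overlap through Flt3. With Flt3 also left out, after its values were seen, the remaining 10 summed to 0.756 and 1.36 FPKM in WT and to 3.96 and 5.84 FPKM in CD274-null. That these sums did not overlap depends on this choice and carries no weight. The part of the dendritic cell markers in the Cd86 values was not tested. Added together, Cd80 and Cd86 gave 1.9 and 3.47 FPKM in WT and 3.11 and 1.68 FPKM in CD274-null, with no separation of the groups.

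Icosl, the ICOS ligand gene on chromosome 10 at 78069368 to 78079525, was the highest of the B7 genes that bind a CD28 family receptor. It had 9.405 FPKM in WT 1, 22.41 in WT 2, 11.97 in CD274-null 1 and 18.35 in CD274-null 2, from 299, 627, 291 and 502 reads. The spread within each group was wider than the difference between the groups, and it exceeded counting error, since the Poisson intervals of WT 1 (8.37 to 10.5 FPKM) and WT 2 (20.7 to 24.2 FPKM) lay far apart. The log2 fold change was 0.03 with an interval of -1.05 to 1.10 (limma, adjusted p = 0.985). WT 1, the lowest library for Icosl, was the highest for Cd274, and WT 2 was the reverse.

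Vsir encodes VISTA and lies on chromosome 10 at 60346851 to 60430294. It had 84.91 and 83.24 FPKM in WT and 78.49 and 99.02 FPKM in CD274-null, from 3364 to 4778 reads. The WT values lay within the range of the CD274-null values, and the log2 fold change was 0.07 ± 0.22 (SE), with an interval of -0.45 to 0.59 (limma, adjusted p = 0.914). Cd276, on chromosome 9 at 58524300 to 58555033, had no read in either WT library and 1 and 2 reads in the CD274-null libraries (0.03537 and 0.06282 FPKM). The floor of 3 reads, taken as the limit for a count of 0, is 0.0811 and 0.0922 FPKM in the WT libraries and the exact Poisson limits are 0.0997 and 0.113 FPKM, so B7-H3 RNA was not detectable at this depth in WT and no fold change was formed.

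**Figure D2:**
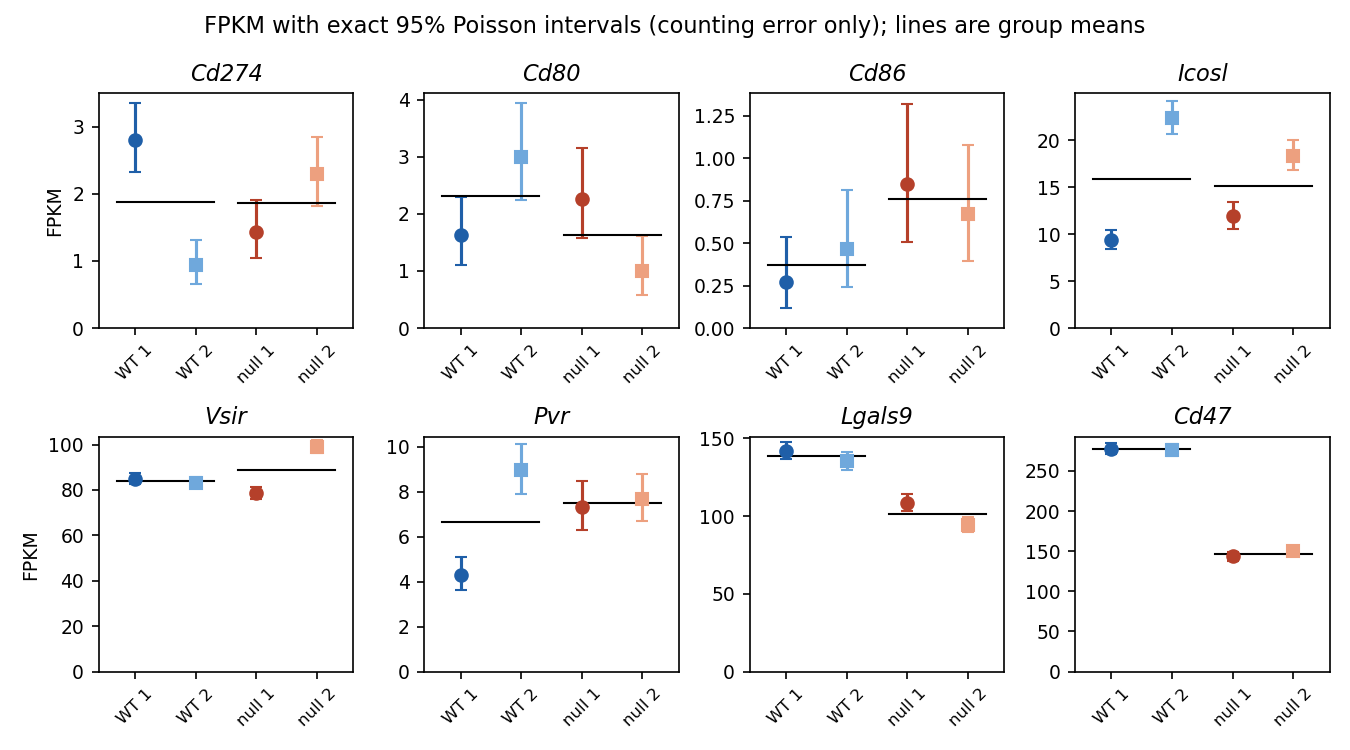
FPKM of the 8 tested ligand genes in each library on linear axes from 0, with exact Poisson intervals from the recovered reads and black lines at the group means. For Cd274, Icosl and Pvr the libraries of the WT group differ by more than their intervals, whereas for Cd47 the libraries of each group lie close together, near 277 FPKM in WT and near 147 FPKM in CD274-null.

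Cd47 showed the largest difference of the tested members in relation to its error. The gene lies on chromosome 16 at 49851328 to 49912503 and had 277.6 FPKM in WT 1, 276.2 in WT 2, 143.4 in CD274-null 1 and 149.8 in CD274-null 2, from 6162, 5397, 2434 and 2863 reads. The WT mean was 277 ± 0.954 FPKM and the CD274-null mean 147 ± 4.53 FPKM (SD, n = 2 in each), or 53% of WT, and the groups were far apart compared with the spread within them. The log2 fold change was -0.92 ± 0.21 (SE), with an interval of -1.42 to -0.41. With an unadjusted p of 0.00401 Cd47 passed the thresholds that define a candidate (p under 0.01 and a fold change above 1.5), and with an adjusted p of 0.255 over all 13230 tested genes (limma, Benjamini-Hochberg) it did not pass an adjusted threshold of 0.05. Among all tested genes 480 (3.63%) were candidates, 164 (1.24%) were candidates that were lower in CD274-null, and 10 (0.0756%) had an adjusted p under 0.05. Cd47 was the only candidate of the 8 tested members, none of which had an adjusted p under 0.05, and a share of 1 in 8 rests on a single gene. By p-value 204 tested genes came before it. The number of candidates lower in CD274-null was itself unstable, at 51 without moderation and 210 under quantile normalization. It fell or rose, depending on the library, when 1 library was left out.

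Few genes of this level are comparable, since 282 of the tested genes (2.13%) had a mean FPKM at or above that of Cd47. Leaving out any one of the 4 libraries kept the direction, with log2 fold changes from -0.95 to -0.88, but moved the limma p to between 0.0106 and 0.0364, so that it was no longer a candidate. The call was also lost, at the same log2 fold change of -0.92, when limma was run without a trend in the variance. With fold changes corrected for GC content, over the 86.4% of tested genes that had a GC value, that of Cd47 was -0.79 and stayed a candidate (limma, adjusted p = 0.354), and with the replicate number as a block added to that correction it did not (adjusted p = 0.381). The smallest length that fits the FPKM of Cd47 was 1919 bases, which equals no annotated transcript, and the longest of those has 5250. Which part of the annotated gene the value reads is therefore not known. SIRPA, the receptor of CD47, is itself made by myeloid cells: Sirpa had 78.86 and 90.94 FPKM in WT and 85 and 91.52 FPKM in CD274-null. Sirpa did not separate the groups (log2 fold change 0.06, interval -0.44 to 0.55, limma adjusted p = 0.922), and the ratio of Cd47 to Sirpa FPKM was 3.52 and 3.04 in WT compared with 1.69 and 1.64 in CD274-null. Of the 6 LIC and myeloid markers 3 had a log2 fold change above 0 and 3 below: Mpo, a marker of granulocytic precursors, was a candidate that was higher (444.3 and 402.6 FPKM in WT, 1427 and 925.2 FPKM in CD274-null), whereas Ptprc, the pan-leukocyte gene, was at -0.58. Of the 12 macrophage markers 7 were tested, with Cd68 a higher and Vcam1 a lower candidate. The part of these markers in the Cd47 result was not tested.

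Lgals9, on chromosome 11 at 78962979 to 78984924, was the other abundant ligand that was lower in both CD274-null libraries. Its values were 142.1 and 135.6 FPKM in WT and 108.7 and 94.28 FPKM in CD274-null, from 2607, 2189, 1524 and 1489 reads. The groups did not overlap, with means of 139 ± 4.62 and 101 ± 10.2 FPKM (SD, n = 2 in each), the CD274-null mean being 73.1% of WT. The log2 fold change of -0.45 ± 0.21 (SE) had an interval of -0.95 to 0.04 and did not pass the test (limma, adjusted p = 0.397). Non-overlap alone is common in these data: 6264 tested genes (47.3%) had groups that did not overlap and 2883 (21.8%) were lower in both CD274-null libraries, against 3 and 2 of the 8 tested members. Havcr2, which encodes the galectin-9 receptor TIM-3, was low and overlapped between the groups, at 0.222 and 0.973 FPKM in WT and 0.622 and 0.332 FPKM in CD274-null.

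Pvr encodes CD155 and lies on chromosome 7 at 19903578 to 19921143. It had 4.31 FPKM in WT 1, 8.944 in WT 2, 7.322 in CD274-null 1 and 7.685 in CD274-null 2, from 144 to 263 reads. Both CD274-null libraries lay between the WT libraries, and the log2 fold change was 0.25 ± 0.38 (SE), with an interval of -0.68 to 1.17 (limma, adjusted p = 0.809). Its receptor genes Cd226, Tigit and Cd96 were each at 0.259 FPKM or less in every library.

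**Figure D3:**
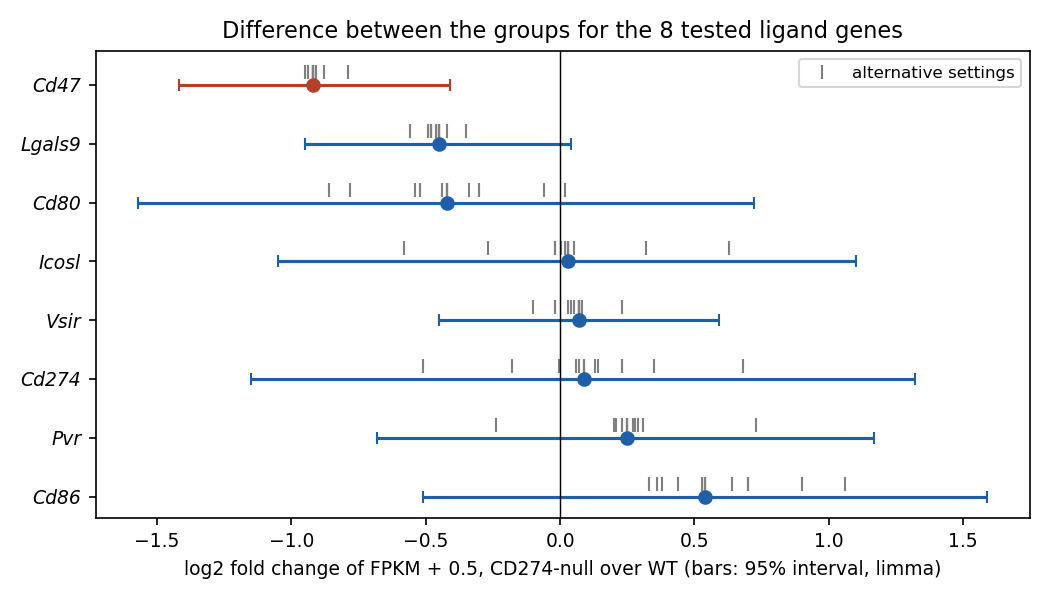
Log2 fold change of FPKM + 0.5 in CD274-null over WT for the 8 tested ligand genes, with the interval at the 95% level from limma (points and bars; red, candidate) and grey ticks for the alternative settings. The interval of Cd47, -1.42 to -0.41, is the only one that leaves out 0, and the ticks of Cd274, Icosl, Vsir, Pvr and Cd80 fall on both sides of 0.

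Read as a group, the members held no ligand that was a candidate for being higher in the CD274-null libraries, a call that 316 of all tested genes (2.39%) received, so that 0 of 8 is near that share. Of the 8 that were tested 5 had a log2 fold change above 0 and 3 below, with a median of 0.05 against 0.01 over all tested genes. This tally moved with the setting, since only 3 were above 0 with quantile normalization, with GC correction, without WT 1 and without CD274-null 2, where the medians were -0.01, -0.02, -0.33 and -0.14. The intervals of Cd274, Cd80, Cd86, Icosl and Pvr reach beyond 1 log2 unit in at least 1 direction, so these libraries could not show whether the weaker ligands differed by that much. Because Cd47 and Lgals9 made up so much of the total, the summed FPKM of the members was 523 and 530.8 in WT compared with 354.4 and 373.3 in CD274-null, and the share of Cd47 in it was 53.1% and 52% in WT compared with 40.5% and 40.1% in CD274-null.

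**Figure D4:**
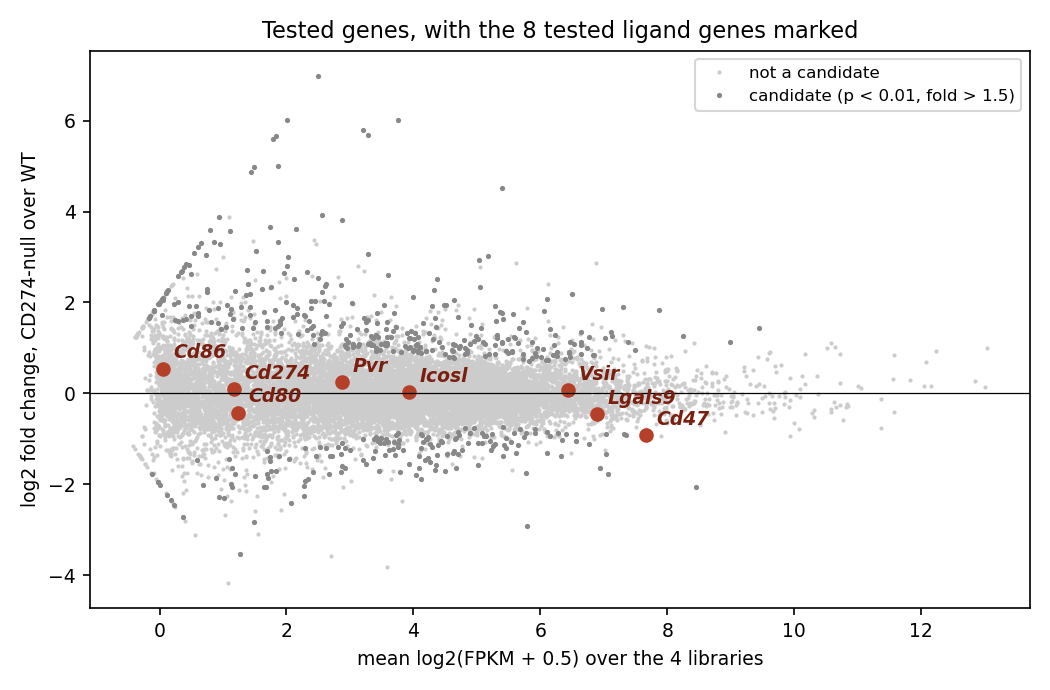
Mean log2(FPKM + 0.5) over the 4 libraries against the log2 fold change in CD274-null over WT for the 13230 tested genes (light grey, not a candidate; dark grey, candidate), with the 8 tested ligand genes in red. Cd47 and Lgals9 lie below 0 at the high end of the levels, and the other members lie within the bulk of genes of their level.

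The sequences upstream of the genes were set out for Cd274, as the deleted gene, and for Cd47 and Lgals9, as the abundant ligands that were lower in CD274-null. They are the 250 bases before 1 annotated transcription start of each gene in RefSeq (GRCm38.p6), 5′ to 3′ on the strand of the gene, and for Cd274 and Cd47 this start lies inside the widest span annotated for the gene: chr19:29367188-29367437 (plus) for Cd274, chr16:49855404-49855653 (plus) for Cd47 and chr11:78984925-78985174 (minus) for Lgals9. Capitals mark a match, on either strand, to the paired core of interferon regulatory factor sites, which reads GAAA, any 2 bases and GAAA.

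Cd274: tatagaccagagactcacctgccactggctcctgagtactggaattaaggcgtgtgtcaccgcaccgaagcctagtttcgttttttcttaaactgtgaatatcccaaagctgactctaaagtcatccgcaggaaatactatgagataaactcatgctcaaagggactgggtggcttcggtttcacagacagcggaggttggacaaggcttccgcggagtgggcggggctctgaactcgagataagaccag

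Cd47: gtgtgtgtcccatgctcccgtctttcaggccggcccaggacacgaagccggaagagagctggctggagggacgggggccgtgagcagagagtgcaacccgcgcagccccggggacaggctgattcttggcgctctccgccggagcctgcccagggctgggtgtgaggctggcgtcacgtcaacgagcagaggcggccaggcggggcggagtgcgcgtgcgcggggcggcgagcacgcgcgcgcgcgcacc

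Lgals9: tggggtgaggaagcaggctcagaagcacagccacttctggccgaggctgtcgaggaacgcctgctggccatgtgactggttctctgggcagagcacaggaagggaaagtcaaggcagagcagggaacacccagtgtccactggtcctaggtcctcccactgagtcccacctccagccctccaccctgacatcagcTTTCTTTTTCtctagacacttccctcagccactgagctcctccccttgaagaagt

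RefSeq gave an upstream sequence for 8 of the 10 members, all except Cd86 and Pvr. This pair was found on either strand in 1 of them, Lgals9, 55 to 46 bases before the start, and in 821 of 27025 genes (3.04%). The STAT motif TTCNNNGAA, which 1940 genes (7.18%) hold, and the E-box CACGTG, which 1634 genes (6.05%) hold, were found in none of the 8 windows. The motifs were chosen with the expression values known, and a match describes these letters only.

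A list of 14 genes, mostly receptors of the members, was examined next. It also holds Lag3, Btla and Thbs1, which do not encode receptors of the members. Only 5 of the 14 reached the level for testing, Btla and Thbs1 among them. None of these was a candidate, and their median log2 fold change was 0.06. The T cell receptors Pdcd1, Ctla4 and Icos were at 0.156 FPKM or less in every library, and Rgmb, which encodes a further partner of PD-L2, was at 0.43 FPKM or less. Cd28 had 0.02 and 0.091 FPKM in WT and 0.157 and 1.4 FPKM in CD274-null, with CD274-null 2 standing above the others, and its mean was below the level for testing. Of the 12 markers of T and NK cells, which include Cd28, 8 were higher in both CD274-null libraries, against 25.6% of all tested genes, and 4 overlapped. Only 2 of the 12 reached the level for testing, so this share is no like measure for the other markers. Some of the 8 rest on very few reads, such as Gzma with 1 read in each CD274-null library and none in WT. Most of their summed FPKM was Nkg7, with 32.4 and 11.7 FPKM in WT and 67.2 and 85.7 FPKM in CD274-null, the other 11 summed to 0.819 and 1.74 FPKM in WT and to 4.7 and 3.48 FPKM in CD274-null, and their part in the receptor values was not tested. Lag3, an inhibitory receptor gene named after its values were seen, had 0.0863 and 0.147 FPKM in WT and 0.565 and 0.752 FPKM in CD274-null, from 2, 3, 10 and 15 reads. Its mean was also below the level for testing, and it was a candidate when no filter on low values was applied (limma, adjusted p = 0.342). The receptor gene with the highest mean level was Sirpa.

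Among 34 other checkpoint and costimulatory ligand genes 19 were tested and none was a candidate, against 3.63% of all tested genes. Their log2 fold changes had a median of 0.10, and 7 of the 34 genes were at 0 in all 4 libraries. The most abundant, the galectin gene Lgals1, had 279.1 and 875.3 FPKM in WT and 703.6 and 691.3 FPKM in CD274-null, and WT 1 stood apart from the other 3 libraries (log2 fold change 0.50, interval -0.78 to 1.77, limma adjusted p = 0.7). The galectin gene Lgals3 and the class I gene H2-Q10, named after their values were seen, were lower in both CD274-null libraries at an unadjusted p under 0.05. These are 2 of 19 genes, with 0 higher, against 754 lower of the 13230 tested genes and 13.7% in either direction. Lgals3 had 140.8 and 235.6 FPKM in WT and 99.56 and 104.5 FPKM in CD274-null (log2 fold change -0.83, limma, adjusted p = 0.325).

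**Figure D5:**
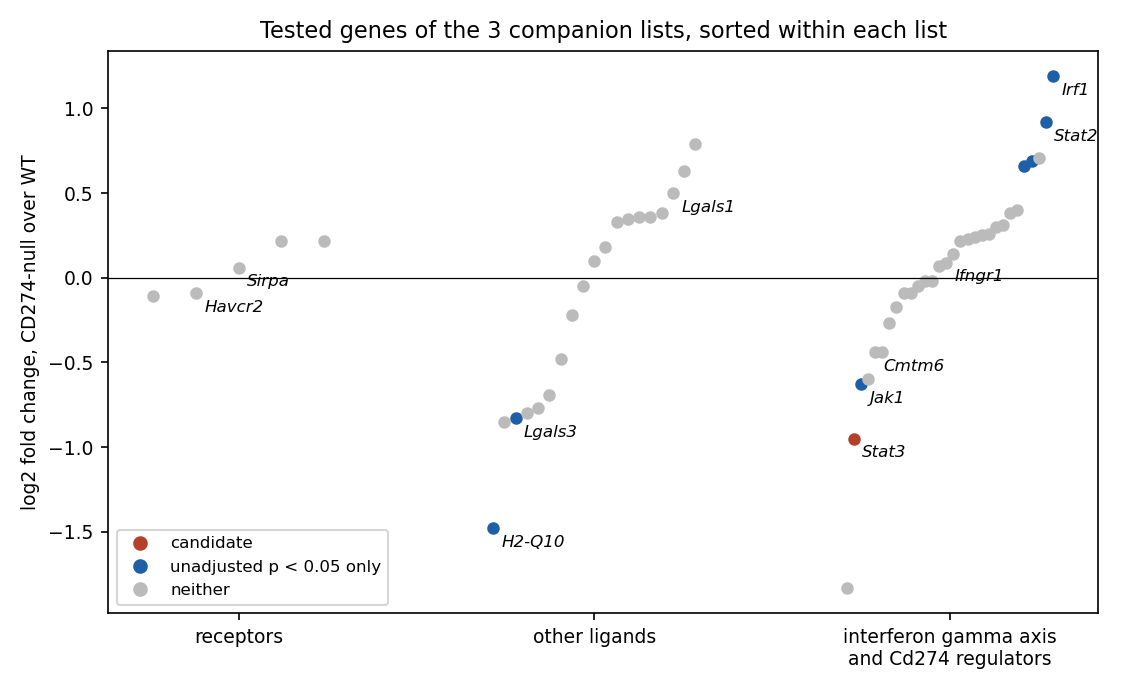
Log2 fold change in CD274-null over WT for the tested genes of the 3 companion lists, sorted within each list. They are 5 genes of the receptor list, 19 other ligands and 30 genes of the interferon gamma axis and known regulators of Cd274. Stat3, at -0.95, is the single candidate (red), and blue points have an unadjusted p under 0.05.

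Interferon gamma, acting through JAK kinases and IRF1, is the best known inducer of Cd274, and STAT3, MYC and hypoxia also act on it. Of 31 genes of this axis and of known regulators of Cd274, 30 were tested and 1 (Stat3) was a candidate, against 3.63% of all tested genes. Stat3 had 112 and 85.23 FPKM in WT and 56 and 45.43 FPKM in CD274-null, with no overlap between the groups (log2 fold change -0.95 ± 0.24 SE, limma, adjusted p = 0.272). Its direction held in the 16 alternatives (-1.14 to -0.75), and its call was lost in 5 of them: with eBayes without a trend (-0.95), without moderation (-0.95), without WT 1 (-0.75), without CD274-null 1 (-1.10) and without CD274-null 2 (-0.80). The interferon gamma receptor gene Ifngr1, the most abundant of the list, had 185.4 and 203.3 FPKM in WT and 239.6 and 177.1 FPKM in CD274-null and overlapped (log2 fold change 0.09, interval -0.50 to 0.67, limma adjusted p = 0.904). Cmtm6, whose product keeps PD-L1 protein on the cell surface, had 50.42 and 56.61 FPKM in WT and 40.21 and 38.5 FPKM in CD274-null, which did not overlap and did not pass the test (log2 fold change -0.44, limma, adjusted p = 0.404). With the unadjusted threshold of 0.05, and named after their values were seen, Irf1, Stat2, Irf9 and Stub1 were higher and Jak1 and Stat3 lower in CD274-null, 6 of the 30 genes against 13.7% of all tested genes at that threshold. Irf1, the transcription factor that binds the Cd274 promoter, had 14.69 and 12.89 FPKM in WT and 21.98 and 46.51 FPKM in CD274-null (log2 fold change 1.19, interval 0.29 to 2.09, limma, adjusted p = 0.299). Irf1 and Cd274 thus did not share an order: CD274-null 2 was highest for Irf1 and WT 1 was highest for Cd274. Over the list the median log2 fold change was 0.11, with 17 genes above 0 and 13 below.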

How the data were processed

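RNA of the 4 libraries (2 WT, 2 CD274-null) was sequenced from TruSeq RNA v2 libraries, and reads were processed by the authors with CASAVA 1.8.2 and TopHat2 2.0.12 on GRCm38 per the submitters' processing notes. The authors deposited FPKM values, and the counter, gene models and filters are not given in the sources used here. The labels speak of sorted cells, whereas the study's methods describe RNA from tissue. Gene numbers were matched to RefSeq symbols for 25275 of 27179 genes. Genes with a mean of at least 0.5 FPKM (13230) were tested on log2(FPKM + 0.5) with limma 3.58.1 in R 4.3.3 (eBayes with a trend, no covariates, Benjamini-Hochberg over all tested genes), so fold changes of low genes are understated. Candidates changed more than 1.5-fold at a p under 0.01 before adjustment. The members, the gene lists and the rule for named genes (all members; in each list the candidates, the most abundant gene and direct partners; for Cd274 the 5 nearest genes) were chosen with earlier results of these data known.

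Low values rose in equal steps set by single reads, from which whole reads were recovered for 99.99% of the 17083 genes above 0 in at least 2 libraries (tolerance 1e-06 reads). The length behind the reads matched an annotated transcript for 2547 of these genes. For the others, among them Cd274, Pdcd1lg2, Cd276, Icosl, Cd47 and Pvr, length and reads are the smallest that fit and so lower bounds. Poisson intervals at the 95% level and a floor of 3 reads came from the recovered reads. The fit was tested on simulated data of 13097 genes at the depths of these libraries. It called 87.9% of genes changed 2-fold, all of those changed 4-fold and 1.07% of unchanged genes. Every simulated gene had the same added spread between libraries, which was smaller than that of Cd274 within WT (2.97-fold). These shares therefore do not give the power or the rate of wrong calls in the real data. Libraries with the same number did not deviate together (correlation over genes -0.0151), so numbers were not taken as pairs. Alternatives were other pseudocounts, filters, scalings and variance models, a replicate block, a correction for GC content, voom on recovered reads, and leaving out each library.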

Additional observations from a re-analysis of the deposited data

How the results depend on the processing

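Over 16 alternatives (15 for Cd274, Cd80 and Cd86, which a minimum mean of 5 FPKM removes), Cd47 kept its direction in all, from -0.95 to -0.79 on the log2 scale, with a limma adjusted p of 0.21 to 0.954, and its call in 10. The call was lost, leaving 0 candidate members, with eBayes without a trend (-0.92), with a replicate block and GC correction together (-0.79) and without each library in turn (-0.95 to -0.88, 0 candidates each time). With the replicate block alone Cd47 was at -0.92 and stayed a candidate. Lgals9 (-0.56 to -0.35) and Cd86 (0.33 to 1.06) kept their direction in every alternative run. The sign of Cd274 turned under quantile normalization (-0.003), that of Icosl under quantile normalization (-0.02), GC correction (-0.02) and block with GC correction (-0.02), and that of Vsir under GC correction (-0.02) and block with GC correction (-0.02). Without 1 library the log2 fold changes ranged from -0.51 to 0.68 for Cd274, -0.58 to 0.63 for Icosl, -0.10 to 0.23 for Vsir, -0.24 to 0.73 for Pvr and -0.86 to 0.02 for Cd80. Without WT 1, Icosl and Pvr reversed, without WT 2, Cd274, and without CD274-null 2, Cd274, Cd80, Icosl and Vsir. The 480 candidates over all genes became 170 without moderation, 310 with GC correction (over the 86.4% of tested genes with a GC value), 294 with block and GC correction and 147 to 634 without 1 library (147 without CD274-null 2, 235 without CD274-null 1), and voom on recovered reads gave 445. Candidates were 316 higher and 164 lower, against 253 and 210 under quantile normalization and 119 and 51 without moderation. With GC correction 186 and 171 were higher, without and with the block. Both the higher and the lower number fell or rose, depending on the library, when 1 library was left out. The 10 genes with an adjusted p under 0.05 became 1 with no filter, 4 with a minimum mean of 5 FPKM, 5 with quantile normalization, 5 with equal medians, 6 without a trend, 0 without moderation, 21 with the replicate block, 0 with GC correction, 0 with block and GC correction, 0 with voom and 0 to 13 without 1 library. Candidates in the receptor list became 1 with no filter (Lag3). In the list of other ligands they became 1 with the replicate block, 1 with block and GC correction and 0 to 4 without 1 library (4 without WT 2). In the interferon list they became 0 without a trend, 0 without moderation, 3 with the replicate block, 2 with block and GC correction and 0 to 4 without 1 library (4 without WT 2). The cause of these shifts was not tested, except that leaving out a library leaves 1 in its group, which is then assumed to vary like the other group. Depth limits Pdcd1lg2 and Cd276, at 5 reads or fewer, and Cd86, at 8 to 19 reads.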
